A study of Danio rerio with 54 samples.

Results

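This comparison sets zebrafish (Danio rerio) embryos with a germline knockout of nfe2 against AB wildtype embryos, both exposed to 1 mM tert-butyl hydroperoxide (tBOOH), an organic peroxide, in the earliest of 3 exposure series, which began at 2 hours post-fertilization (hpf). It takes 6 of the study's 54 libraries, chosen by their labels: the 3 knockout tBOOH libraries and the 3 wildtype tBOOH libraries of the 2 hpf series. Each library was made from a pool of 30 whole embryos. The full design crosses the 2 genotypes with tBOOH, 20 µM diquat (a redox-cycling herbicide) and no treatment (water), at 2, 48 and 96 hpf. Embryos were dosed for 4 h and kept for another 4 h in clean medium before freezing, per the treatment protocol, whereas the sample descriptions place RNA sampling at 2 hpf. The wildtype line is AB. The knockout came from injections into AB/TL hybrid embryos, per the growth protocol, and its sample label gives the AB background, so the mutation and any TL-derived sequence cannot be told apart. The line carries a single founder deletion. No source used here says whether the pools came from separate matings, so p-values measure the spread between pools.

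Nfe2 is a Cap'n'collar (CNC) basic leucine zipper transcription factor. CNC factors pair with small Maf proteins and bind antioxidant response elements, short DNA sequences near genes for glutathione synthesis, peroxide removal and haem breakdown. In mammals NFE2 is best known in megakaryocytes and red-cell precursors, and its relative NFE2L2 (Nrf2), held down by Keap1, is the main regulator of the response to oxidants. The design asks how loss of Nfe2 alters the embryo's transcriptome under an oxidant.

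The knockout was made with a pair of TAL effector nucleases aimed at exon 3 of nfe2, on chromosome 23. The target sites and the deleted bases define the genotype compared, and are given 5′ to 3′ as the growth protocol lists them:
First target site: tcacccacctcttatgag
Second target site: CATGActacacgtggtca
Deleted bases: gcaCATGA
The capitals mark the 5 bases that end the 8-base deletion and also begin the second target site as listed. The deletion shifts the reading frame ahead of the basic leucine zipper domain. It leaves the rest of the transcript in place, so the level of nfe2 RNA does not check the genotype labels.

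The 6 libraries held 758432 to 906650 reads counted to genes, within the 739807 to 1044504 of the 18 libraries of the 2 hpf series. Values are the authors' normalised counts (reads divided by a library size factor), in which a single read is worth 0.805 to 1.14 units in these 6 libraries. Genes of the gastrula were present in all 6 libraries, with 93.4 to 191 normalised counts for msgn1 (presomitic mesoderm), 96.9 to 202 for sox3 (neural plate) and 2598 to 3626 for krt4 (surface epithelium). The later-stage genes gata1a (red cells), hbbe1.1 (embryonic globin) and cryaa (lens) had no read in any of them. The muscle genes ckma and mylpfa, also of later stages, had some reads, up to 1.74 and 4.91 normalised counts in a library. The first principal component of the 18 libraries, with 53.8% of the variance, ran from 12.7 to 58.2 in knockout libraries and from -47.2 to -14.3 in wildtype libraries. Wildtype tBOOH replicates 2 and 3 lay nearest to the knockout libraries on it, at -14.3 and -16.8, whereas wildtype tBOOH replicate 1 lay at -34.6. Knockout tBOOH replicate 3 had the lowest quality weight of the 6 libraries, 0.481.

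**Figure D1:**
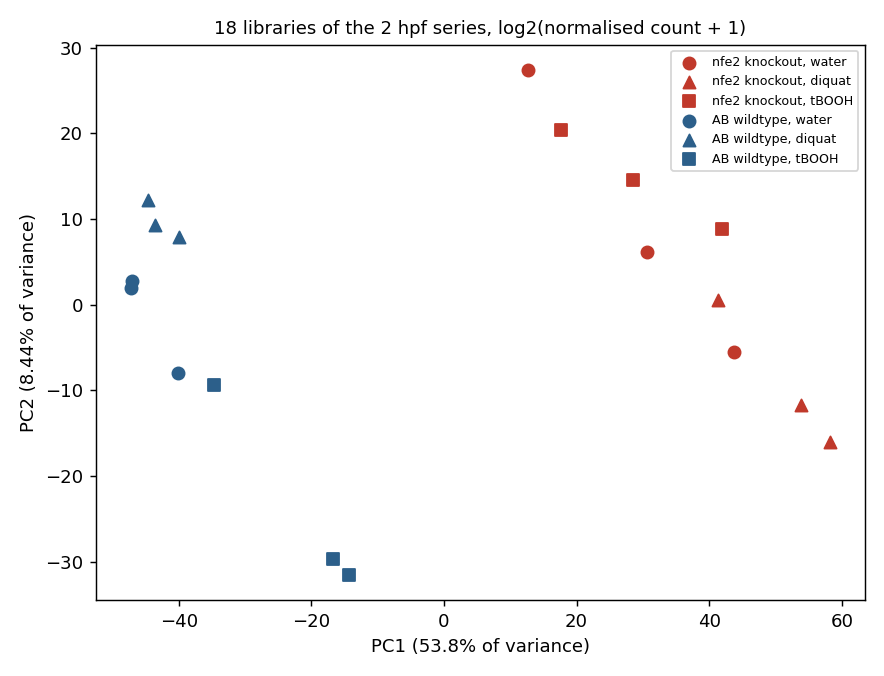
Scores of the 18 libraries of the 2 hpf series on the first 2 principal components of log2(normalised count + 1), colour for genotype and marker shape for treatment. The genotypes lie apart on the first component, and wildtype tBOOH replicates 2 and 3 (lowest squares) stand away from the other wildtype libraries.

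The libraries were prepared to keep the strand of each RNA, but the strand setting used to count reads is not given in the sources used here, and some values bear on it. The gene mt-nd6, the mitochondrial mRNA that lies on the opposite strand from the other 12, ranked 1 of 13 in each knockout tBOOH library and 2, 2 and 3 in the wildtype tBOOH libraries. Of the 100 genes with the highest mean, 62 could be matched to RefSeq, and 40 of these overlap another gene there (64.5%), beside 38.8% of the 6325 tested genes that could be matched. Whether the reads counted at a gene came from its own RNA or from RNA of the other strand cannot be told apart here. Each level below is therefore the reads counted at the gene named.

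The genotypes differed at many genes under tBOOH. Of 7783 genes tested, 1102 (14.2%) passed a Benjamini-Hochberg adjusted p of 0.05 in limma, 606 higher in the knockout (7.79%) and 496 lower (6.37%). Among these calls the log2 difference, knockout minus wildtype on the log2(normalised count + 1) scale, exceeded 1 in size for 316 genes that rose and 322 that fell, and exceeded 3 for 28 and 34. All 3 libraries of one genotype lay beyond all 3 of the other for 1066 of the 1102 calls, and for 30.4% of all genes tested. The median log2 difference over all genes was -0.01. Without knockout tBOOH replicate 3 the count was 671, 328 higher and 343 lower. Among the genes matched to RefSeq that overlap no other gene there, 221 rose and 205 fell of 3871 (11%).

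The reads at nfe2 itself numbered 22.2, 18 and 19.4 normalised counts in the knockout libraries, against 11.4, 9.57 and 5.63 in the wildtype libraries. All 3 knockout values lay above all 3 wildtype values, with a log2 difference of 1.12 ± 0.47 (SE) that did not pass the threshold in the fit to all 18 libraries of the series (limma adjusted p = 0.108) and passed it in a fit to the 6 tBOOH libraries alone (limma adjusted p = 0.027). It was the single gene of the 6 tested of the list of CNC factors, Keap1, Bach and small Maf proteins to be called there. In that fit 968 of all 7783 genes were called. None of the 6 was called in the fit to all 18, beside 14.2% of all genes. With 6 genes, neither count sets the list apart from all genes. The others tested were nfe2l1a and nfe2l3, CNC relatives of nfe2, the small Maf genes maff and mafga, and keap1b, the inhibitor of Nrf2. Their log2 differences ran from -0.27 for mafga to 0.48 for nfe2l1a, with adjusted p-values from 0.39 to 0.856. The counts at these genes were low, at most 77.8 in any of the 6 libraries.

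Genes of the antioxidant response, the class that CNC factors are known to regulate, gave no call under tBOOH in limma: 0 of 20 tested, beside 14.2% of all genes. Their median log2 difference was 0.02. The count was 2 lower with library quality weights and 1 lower with edgeR, without knockout replicate 1 or without wildtype replicate 1. In water 3 of the 20 rose and 3 fell, beside 15.9% and 15.4% of all genes. Under diquat 3 rose and 4 fell, beside 23.8% and 21.2% of all genes. The haem-degrading enzyme gene hmox1a had 177, 190 and 237 normalised counts in the knockout tBOOH libraries, against 155, 158 and 177 in the wildtype tBOOH libraries. The lowest knockout value and the highest wildtype value both round to 177, and the log2 difference was 0.29 ± 0.20 (limma adjusted p = 0.38). In water hmox1a had 191, 146 and 217 in the knockout, against 83.5, 71 and 115 in the wildtype, and under diquat 308, 241 and 456 in the knockout, against 94.8, 78.4 and 94.4 in the wildtype. The log2 differences were 1.04 in water and 1.85 under diquat (limma adjusted p = 0.0003 in water and 5.4e-08 under diquat). The genotype difference at hmox1a was smaller under tBOOH than under diquat (limma interaction, adjusted p = 0.0016). The quinone reductase gene nqo1 had 23, 23.7 and 26.3 in knockout tBOOH libraries, against 25.2, 51.4 and 41.9 in wildtype tBOOH libraries, groups that overlap (adjusted p = 0.08). The catalytic subunit of glutathione synthesis, gclc, averaged 26.1 in the knockout and 25.1 in the wildtype, and the ferritin heavy chain gene fth1a averaged 251 and 247.

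The list of peroxide and superoxide enzymes, which also holds glutaredoxin and thioredoxin-like genes, moved in both directions. Of 14 tested genes 3 were higher and 3 lower, beside 7.79% and 6.37% of all genes tested. Without knockout replicate 3 or without wildtype replicate 1 the counts were 1 higher and 2 lower. Calls at the members glrx and msrb1a were lost in 9 and 10 of 14 alternatives. The monothiol glutaredoxin gene glrx3 had 129, 95 and 182 normalised counts in the knockout and 67.6, 63.5 and 61.2 in the wildtype (log2 difference 1.02 ± 0.20, limma adjusted p = 0.000637). The lipid peroxidase gene gpx4a averaged 158 ± 51.6 in the knockout and 84.9 ± 20.3 in the wildtype (means ± SD, n = 3 each, here and below), a rise lost without knockout replicate 3 or wildtype replicate 1. The thioredoxin-like gene txnl1 fell, with 81.3, 99.1 and 49.1 in the knockout, against 158, 178 and 175 in the wildtype. The peroxiredoxin gene prdx5 also fell, to 160 ± 26.5 in the knockout, against 253 ± 27.3 in the wildtype. Its genotype difference under tBOOH, -0.66, was below that under diquat, 0.22 (limma interaction, adjusted p = 0.013).

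The 12 largest rises in the knockout were chosen among calls whose groups do not overlap, so their distance from the wildtype follows in part from the choice. It also required a higher-group mean of 50 or above and left out clone names. Over all calls 28 genes rose by more than 3 on the log2 scale, so some rises outside the choice exceed some of the 12. In 8 of them no wildtype tBOOH library passed 13 normalised counts. The gene counted highest was dnajb9b (ENSDARG00000016886), whose product is an endoplasmic reticulum co-chaperone, with 752, 626 and 878 normalised counts in the knockout, against 15.5, 14.8 and 12.9 in the wildtype (log2 difference 5.6 ± 0.28, limma adjusted p = 1.5e-14). The gene for slow-muscle myosin-binding protein C, mybpc1, had 126, 138 and 131 in the knockout, against 0, 0 and 1.61 in the wildtype. The cilium-associated CFAP70 had 144, 273 and 171 in the knockout, against 0, 2.61 and 0.805 in the wildtype. These groups lay far apart, though the choice of genes already required that they not overlap. The T-type calcium channel gene cacna1ha (ENSDARG00000097913) averaged 236 ± 28.8 in the knockout and 12.6 ± 5.22 in the wildtype. The RNA helicase gene dhx40 averaged 183 ± 30.9 and 6.13 ± 3.28 in the same groups. The orphan receptor gene gpr19 averaged 77.8 ± 6.71 in the knockout and 0.561 ± 0.487 in the wildtype. The attractin relative atrnl1b averaged 209 ± 48.8 in the knockout and 37.7 ± 9.19 in the wildtype, the smallest of these rises at 2.44 ± 0.22 on the log2 scale. The remaining 5 were avpr2l (a vasopressin receptor-like gene), cib1 (ENSDARG00000103987; calcium and integrin binding), slc35f4 (a solute carrier), mpi (mannose phosphate isomerase) and tbc1d30 (a Rab GTPase-activating protein). All 12 were also called higher in the knockout in water and under diquat, as were 77.2% and 78.2% of all 606 genes higher under tBOOH.

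**Figure D2:**
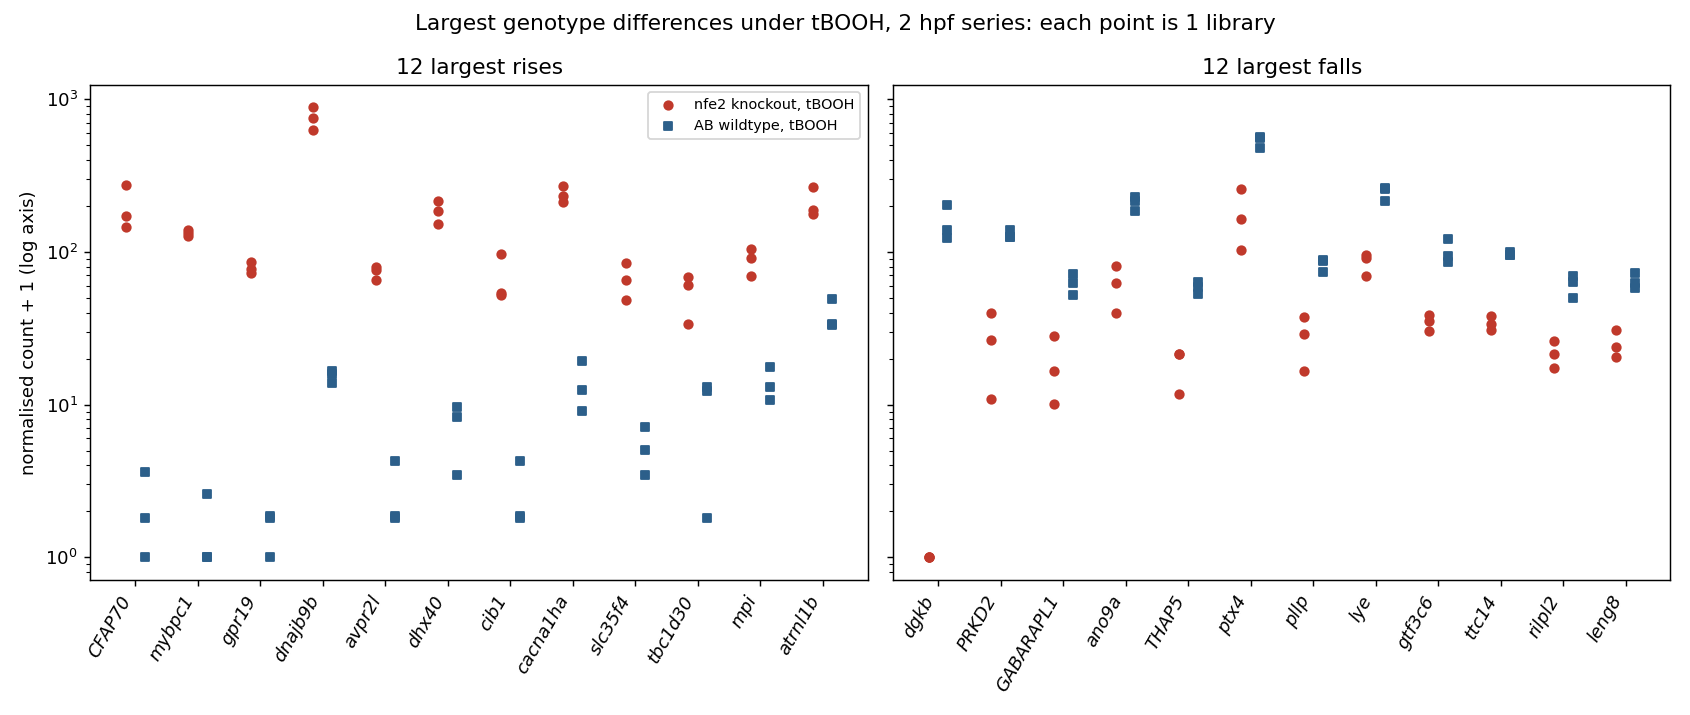
Normalised counts + 1 (log axis) of the 12 genes with the largest rises and the 12 with the largest falls in the knockout under tBOOH; each point is 1 library, knockout left of wildtype. The 3 knockout points lie beyond the 3 wildtype points for every gene shown, as the choice of genes required. That choice also required a higher-group mean of 50 or above and left out clone names. At dgkb there is no read in the 3 knockout libraries.

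Some of the largest rises lie at the same place. The annotated spans of mybpc1 and avpr2l each overlap that of apaf1, which encodes the apoptosome scaffold, in RefSeq, and apaf1 had 36.1, 46.7 and 40 normalised counts in the knockout, against 5.7, 10.4 and 8.05 in the wildtype (log2 difference 2.24 ± 0.28). The Ets-family gene spic, which overlaps apaf1 too, averaged 13.1 ± 7.09 in the knockout and had no read in any wildtype tBOOH library. The deposited table has 2 entries under the symbol dnajb9b. The entry that rose was not matched to RefSeq, so its overlaps are not given here. The second entry (ENSDARG00000097601) had 29.5, 42.6 and 33.1 in the knockout, against 32.6, 33.1 and 40.2 in the wildtype, so the genotypes overlapped there. The ribosome-biogenesis gene UTP20 and slc5a8, a solute carrier whose span it overlaps, both rose, by 1.21 ± 0.19 and 1.58 ± 0.30 on the log2 scale. Likewise zgc:153284, with 24776 ± 4726 in the knockout and 13249 ± 1112 in the wildtype, overlaps the ribosomal protein gene rps12, with 790 ± 241 and 414 ± 70.5 in the same groups, and their log2 differences were 0.89 and 0.90. These loci were picked after their values were seen. Of 433 pairs of tested genes that overlap in RefSeq, 141 had at least 1 member called and 15 had both, 14 of them in the same direction. Counted by gene and not by pair, 16% of the 2454 genes that overlap another were called. No rate for pairs of unrelated genes was worked out, so the pair counts do not set overlapping genes apart.

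**Figure D3:**
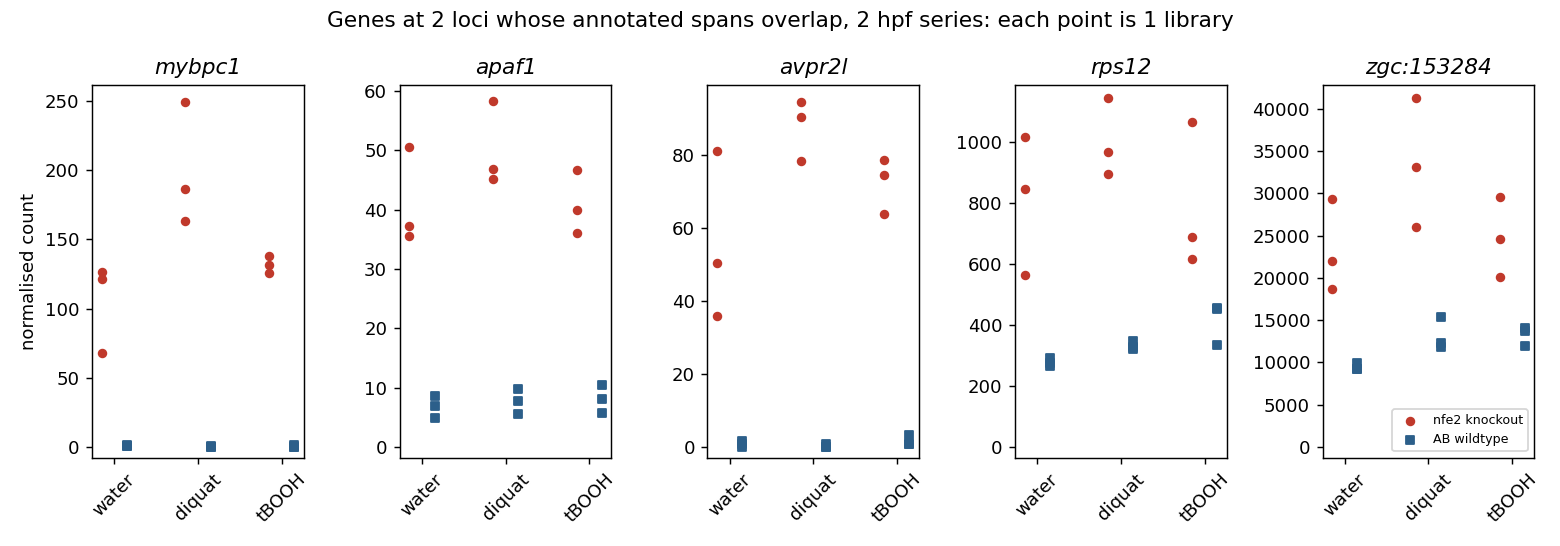
Normalised counts of mybpc1, apaf1 and avpr2l, and of rps12 and zgc:153284, in the 18 libraries of the 2 hpf series; each point is 1 library, knockout left of wildtype within each treatment, and each panel has its own axis. At both loci all knockout points lie above all wildtype points of the same treatment.

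The 12 largest falls were led by dgkb, the gene for diacylglycerol kinase beta, which had no read in any of the 3 knockout tBOOH libraries, against 137, 122 and 200 normalised counts in the wildtype tBOOH libraries. It was at least 165-fold lower in the knockout, taking 3 reads over the group as the floor. No read was counted at dgkb in the 3 knockout water and 3 knockout diquat libraries either, where the wildtype averaged 183 and 38.8. The other falls of the 12 were smaller, from -2.52 to -1.37 on the log2 scale, and none of them reached 0. These 12 were chosen as the rises were, with a higher-group mean of 50 or above and no clone names. Over all calls 34 genes fell by more than 3 on the log2 scale, so larger falls lie outside the choice. The protein kinase D gene PRKD2 (1 to many, in the table's own naming) had 9.85, 25.4 and 38.9 in the knockout, against 124, 124 and 138 in the wildtype. The pentraxin gene ptx4 had 256, 163 and 102 in the knockout, against 564, 474 and 550 in the wildtype. The anoctamin gene ano9a (ENSDARG00000076320) averaged 59.9 ± 20.6 in the knockout and 209 ± 22.1 in the wildtype. The epidermal Ly6-family gene lye averaged 83.7 ± 13.8 in the knockout and 244 ± 25.5 in the wildtype. A subunit of transcription factor IIIC, gtf3c6, averaged 33.8 ± 4.15 and 98.8 ± 18.5 in the same groups. The autophagy gene GABARAPL1 averaged 17.3 ± 9.09 in the knockout and 60.8 ± 9.32 in the wildtype. The others were THAP5, rilpl2, pllp (plasmolipin), ttc14 and leng8. Of the 12, ano9a, THAP5 and ttc14 were not called under diquat, and the genotype difference of each there differed from that under tBOOH (limma interaction, adjusted p = 0.0027, 0.0017 and 0.0019).

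Besides dgkb, 4 genes had no read in the 3 knockout tBOOH libraries while the wildtype averaged 20 or more. These were the elastase gene ela2, with 21.2, 54.8 and 23.3 normalised counts in the wildtype (at least 35.7-fold lower in the knockout), fhad1 (at least 45.7-fold lower), the transmembrane channel-like gene tmc8 (at least 27.9-fold lower) and si:ch73-281f12.1 (at least 106-fold lower). In the knockout water and diquat libraries each of these 4 had at most 1 read over a group of 3. In the other direction RIMBP2 (1 to many), a synaptic protein gene, had no read in the wildtype tBOOH libraries and 23, 26.2 and 24 in the knockout, at least 29.4-fold higher. Under diquat its wildtype libraries held 63 reads in all, so its absence from wildtype libraries did not extend to every treatment.

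Cytosolic ribosomal protein genes were higher in the knockout. Of 83 tested, 39 rose (47%, beside 7.79% of all genes) and 0 fell, 80 had a positive difference, and the median log2 difference was 0.44. The small-subunit gene rps2 had 1237, 1058 and 1546 normalised counts in the knockout, against 577, 527 and 672 in the wildtype (log2 difference 1.1 ± 0.15, limma adjusted p = 3.55e-06). The large-subunit gene rpl11 had 398, 318 and 490 in the knockout, against 174, 191 and 217 in the wildtype. For both genes the highest wildtype value lay below the lowest knockout value. The laminin-binding ribosomal protein gene rpsa averaged 730 ± 195 in the knockout and 376 ± 34.9 in the wildtype, and rpl8 averaged 387 ± 67 and 232 ± 17.2. In the 3 knockout libraries the list summed to 21724 to 28376, against 16713 to 18168 in the 3 wildtype libraries. The count of rises was 15 without knockout tBOOH replicate 3 and 24 without wildtype tBOOH replicate 1, and 19 of 48 among the genes that overlap no other gene. In water 67 of the 83 rose, beside 15.9% of all genes. Under diquat 48 rose and 1 fell, beside 23.8% and 21.2% of all genes. Ribosome assembly and nucleolar genes had 7 of 48 higher and 1 lower (4 higher and 0 lower without knockout replicate 3, and 5 calls without knockout replicate 1 or wildtype replicate 2), among them the RNA helicase genes ddx21 and ddx18, with 194 ± 12 and 170 ± 24 in the knockout, against 122 ± 10.8 and 107 ± 17.3 in the wildtype. At ddx18 the genotype difference was 0.01 in water, without a call, and its difference between tBOOH and water did not pass the limma interaction test. Of the 48, 16.7% were called under tBOOH, beside 14.2% of all genes. In water 9 of them rose and 8 fell, beside 15.9% and 15.4% of all genes.

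Genes of the unfolded protein and integrated stress responses had 8 of 39 higher and 0 lower in the knockout, beside 7.79% and 6.37% of all genes, with a median log2 difference of 0.00. The first by p was dnajb9b (ENSDARG00000016886). The calreticulin gene calr3a, for a calcium-binding chaperone of the endoplasmic reticulum, had 86.2, 86 and 127 normalised counts in the knockout, against 43.9, 30.5 and 39.4 in the wildtype. Its paralogue calr had 39.4, 49.1 and 61.7 in the knockout, against 17.9, 14.8 and 22.5 in the wildtype. Neither gene's groups overlap. The amino-acid-starvation target asns, for asparagine synthetase, averaged 39.7 ± 1.15 in the knockout and 17.1 ± 5.38 in the wildtype. The remaining calls were hspa5 (the chaperone BiP), p4hb (protein disulfide isomerase), psph (serine synthesis) and slc3a2a (an amino acid transporter chain), of which hspa5 and slc3a2a were not called without knockout replicate 3. Of the 28 members that overlap no other gene, 3 rose. Heat shock proteins had 3 of 22 higher and 1 lower. The constitutive chaperone gene hspa8 had 1618, 1590 and 1612 in the knockout, against 1034, 977 and 975 in the wildtype. The cytosolic chaperone gene hsp90ab1 averaged 2606 ± 427 in the knockout and 1640 ± 177 in the wildtype. The muscle chaperone gene hsp90aa1.1 had 27.9, 31.1 and 53.7 in the knockout, against 11.4, 7.83 and 10.46 in the wildtype, and its genotype difference exceeded that under diquat by 1.48 ± 0.39 (SE; limma interaction, adjusted p = 0.013). The co-chaperone gene ahsa1b was the member that fell, a call lost in 8 alternatives, among them when any 1 of the 3 knockout libraries was left out. Proteasome subunits had 4 of 40 higher (10%, beside 7.79% of all genes) and 0 lower. The count was 0 without knockout replicate 3, 1 without wildtype replicate 1 and 2 without wildtype replicate 2 or 3. No tested member of the p53 pathway list (0 of 16) or the cholesterol synthesis list (0 of 9) was called in limma with all libraries. There was 1 p53 pathway call without knockout replicate 2, and 1 cholesterol synthesis call without knockout replicate 3 or with library quality weights.

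Genes of the epidermis, the enveloping layer (the embryo's outermost cell sheet) and the neural plate border fell more often than they rose. Of 37 tested, 14 fell and 2 rose, beside 6.37% and 7.79% of all genes, with a median log2 difference of -0.54. The enveloping-layer keratin gene krt8 had 364, 321 and 280 normalised counts in the knockout, against 632, 588 and 622 in the wildtype (log2 difference -0.94 ± 0.14, limma adjusted p = 1.93e-05). The adhesion gene epcam had 41.9, 27 and 34.3 in the knockout, against 65.9, 74 and 68.4 in the wildtype. The ectodermal transcription factor gene tfap2a averaged 60.2 ± 14.4 in the knockout and 112 ± 15.3 in the wildtype. For all 3 the genotypes did not overlap. The desmosomal plaque genes evpla and ppl fell too, with 58.7 ± 6.47 and 126 ± 11.2 in the knockout, against 103 ± 15.6 and 196 ± 9.03 in the wildtype, as did the keratins krt5, krt18 and krt92, the cadherin gene cdh1 and the surface-layer regulator grhl3. The calls of these last 5 genes each depend on a library: none of krt5, krt18, cdh1 and grhl3 was called without knockout replicate 3, and krt92 was not called without knockout replicate 2. The 2 rises were sox9b (neural crest) and cldni (a claudin), and neither was called without wildtype replicate 1. The list summed to 6315 to 6574 in the knockout libraries, against 7396 to 9303 in the wildtype libraries. In water the list had 5 higher and 9 lower, beside 15.9% and 15.4% of all genes. Under diquat it had 6 higher and 11 lower, beside 23.8% and 21.2% of all genes. The count called was 10 without knockout tBOOH replicate 3 and 8 without wildtype tBOOH replicate 3. Of the markers planned for the epidermis and enveloping layer, krt8 was called, and krt4, tp63 and cldne were not. Over the 6 libraries krt4 ran from 2598 to 3626, tp63 from 63.5 to 75.4 and cldne from 119 to 194. In pools of whole embryos, fewer cells of a type and less RNA per cell cannot be told apart.

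Genes of blastula and gastrula signalling had 8 of 39 lower and 1 higher, beside 6.37% and 7.79% of all genes, with a median log2 difference of -0.37. In water 11 of the 39 were lower and 1 higher, beside 15.4% and 15.9% of all genes, with a median of -0.41. Under diquat 9 were lower and 5 higher, beside 21.2% and 23.8% of all genes, with a median of -0.21. The ventral BMP-pathway regulator szl (sizzled) had 29.5, 28.7 and 21.7 normalised counts in the knockout, against 61, 72.2 and 74.1 in the wildtype (log2 difference -1.35 ± 0.24, limma adjusted p = 0.000204). At szl there was no call in water or under diquat (log2 difference -0.28 in each). Its difference from diquat passed the limma interaction test (adjusted p = 0.032), and that from water did not. The BMP ligand gene bmp4 and the BMP pseudoreceptor gene bambia fell as well, to 4.91 ± 2.17 and 58.1 ± 4.44 in the knockout, against 11.1 ± 0.412 and 92.8 ± 12.9 in the wildtype. The call at bmp4 was lost in 9 alternatives, edgeR and DESeq2 among them, and that at bambia without wildtype replicate 2. The retinoic-acid-degrading enzyme gene cyp26a1 averaged 56.6 ± 11.5 in the knockout and 109 ± 8.24 in the wildtype. The Wnt antagonist gene sfrp1a averaged 12.8 ± 2.39 in the knockout and 30.5 ± 6.33 in the wildtype, and the Nodal co-receptor gene tdgf1 averaged 8.08 ± 3.15 in the knockout and 21.5 ± 5.46 in the wildtype. The Nodal ligand gene ndr2 was the member that rose. The calls at tdgf1 and ndr2 were lost without knockout replicate 3, tdgf1 also without wildtype replicate 1 and ndr2 also without wildtype replicate 3. The count called was 5 without knockout tBOOH replicate 3 or without wildtype tBOOH replicate 1.

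Other tissue lists moved in both directions, and their counts stand beside 7.79% of all genes higher and 6.37% lower. Neural plate and brain genes had 6 of 39 higher and 4 lower, and 6 calls in all without knockout replicate 3 or without wildtype replicate 3. The eye and forebrain regulator pax6a had 14, 25.4 and 18.3 normalised counts in the knockout, against 8.14, 3.48 and 7.24 in the wildtype. The hindbrain regulator egr2b had 9.85, 9.01 and 16 in the knockout, against 0.814, 2.61 and 0.805 in the wildtype. The maternal and early pluripotency factor pou5f3 fell to 12.8 ± 2.37 in the knockout, against 31.1 ± 4.69 in the wildtype. Endoderm and yolk syncytial layer genes had 1 of 22 higher and 4 lower (1 and 2 without knockout replicate 3 or wildtype replicate 1), among them foxa1, a pioneer factor of endoderm and notochord, with 1.64, 0.819 and 0 in the knockout and 10.6, 15.7 and 9.66 in the wildtype. Germ plasm genes had 2 of 6 lower. One was dnd1 (dead end), which primordial germ cells need to survive, with 0.821, 3.28 and 3.43 in the knockout and 16.3, 20 and 15.3 in the wildtype. Among blood, endothelium and heart precursors, 1 of 12 rose and 3 fell, and 1 rose and 1 fell without knockout replicate 3, wildtype replicate 1 or wildtype replicate 2. The red-cell haem synthesis gene alas2 had no read in the knockout tBOOH libraries and 16.3, 27.9 and 15.3 in the wildtype, and drl (draculin), a lateral mesoderm gene, had 15.6, 9.83 and 19.4 in the knockout and 0.814, 2.61 and 0 in the wildtype. Immediate early genes had 1 of 17 higher and 2 lower, and 1 and 4 with edgeR or library quality weights. In axial mesoderm 2 of 19 rose and 2 fell, with 1 call in all without wildtype replicate 2 and 2 without knockout replicate 3 or wildtype replicate 3. In paraxial mesoderm 1 of 27 rose and 1 fell, with 4 calls without knockout replicate 1 or 2 or with library quality weights, the rise being tbx6 with 50.7 ± 5.52 in the knockout and 26.9 ± 4.4 in the wildtype, a call lost without wildtype replicate 3. Of the remaining lists, glycolysis and hypoxia had 1 of 12 higher and 1 lower, and maternal transcripts (5 tested), differentiated tissue genes (5) and circadian genes (7) each had 1 lower and 0 higher. The rise in the first was lost without knockout replicate 2 or 3 or wildtype replicate 3, and the circadian call when any 1 of the 6 libraries was left out or with DESeq2.

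**Figure D4:**
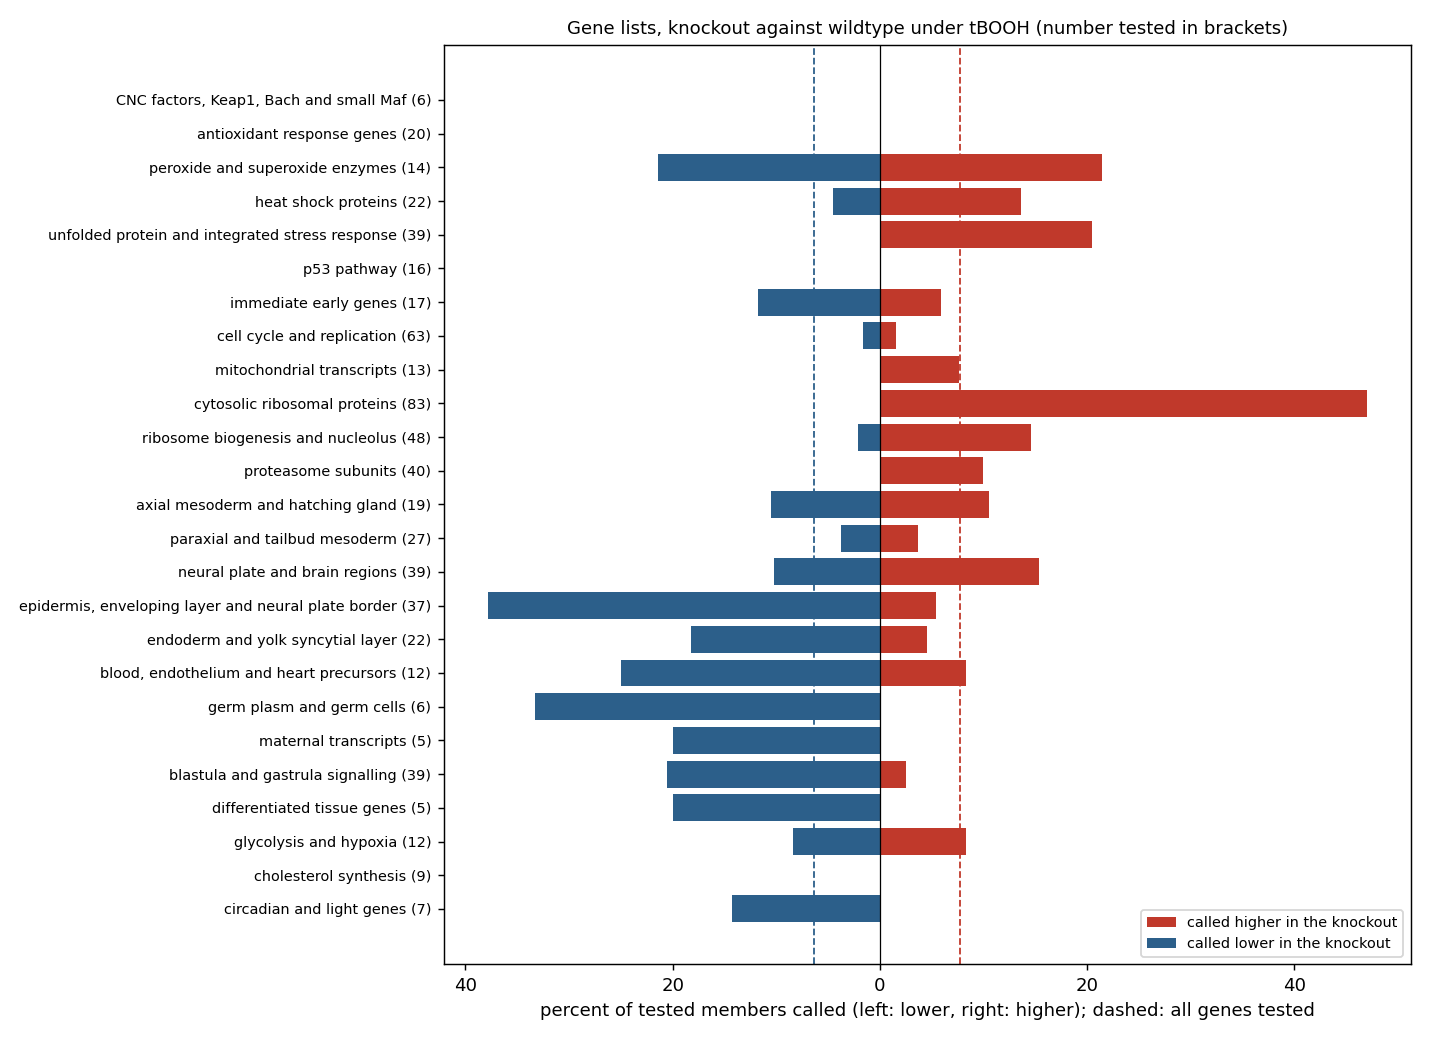
Percent of the tested members of each of 25 gene lists called higher (right) or lower (left) in the knockout under tBOOH, with the number tested in brackets and the share over all genes tested as dashed lines at 7.79% and 6.37%. Ribosomal proteins reach 47% higher, and 14 of 37 genes of the epidermis, enveloping layer and neural plate border are called lower.

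Cell cycle genes gave few calls between the genotypes under tBOOH in limma. Of 63 cell cycle and replication genes, 1 rose and 1 fell (3.17%, beside 14.2% of all genes). The ribonucleotide reductase gene rrm2 (ENSDARG00000020711) had 82.9, 77.8 and 143 normalised counts in the knockout, against 43.9, 47 and 29.8 in the wildtype. A second rrm2 entry (ENSDARG00000078069) leaned the other way, with 105, 74.5 and 91.4 in the knockout, against 105, 107 and 143 in the wildtype. Its groups met at 105. The DNA polymerase alpha subunit gene pola2 had 49.2, 47.5 and 46.9 in the knockout, against 116, 93.1 and 120 in the wildtype. In water 4 of the 63 rose and 16 fell, beside 15.9% and 15.4% of all genes. Under diquat 5 rose and 28 fell, beside 23.8% and 21.2% of all genes. The genotype difference under tBOOH lay above that under diquat for 7 of the 63 and below it for 4, beside 6.03% and 8.25% of all genes. Of 13 mitochondrial mRNAs 1 was called under tBOOH (7.69%, beside 14.2% of all genes). With 13 genes this count does not set the list apart from all genes. The gene called was mt-nd6, with 8607, 10217 and 12474 in the knockout, against 3861, 6835 and 5492 in the wildtype. There were 4 calls, 1 higher and 3 lower, with library quality weights or without wildtype replicate 1, and 3 with edgeR. Under diquat 8 of the 13 were higher in the knockout, beside 23.8% of all genes. For 6 of the 13 the genotype difference under tBOOH was below that under diquat (limma interaction), beside 8.25% of all genes. Among the 6 was mt-nd1, with a log2 difference of 0.00 under tBOOH and 0.89 under diquat.

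The number of calls was smaller under tBOOH (1102) than in the other treatments of the same series. Water gave 2436 of 7783 (31.3%), with 15.9% higher and 15.4% lower, and diquat 3501 (45%), with 23.8% higher and 21.2% lower, and the median size of the log2 difference over all genes was 0.35 under tBOOH, 0.48 in water and 0.61 under diquat. Of the 606 genes higher under tBOOH, 468 were also higher in water, 77.2% of the tBOOH list and 37.8% of the water list. Of the 496 lower, 306 were lower in water (61.7% and 25.5%). Under diquat the shared counts were 474 higher and 279 lower. A set of 648 genes was called in the same direction in all 3 treatments, 416 higher and 232 lower, and 9 in all 3 with mixed directions. The treatments use separate pools of both genotypes. Under tBOOH alone 202 genes were called, 69 higher and 133 lower, among them szl, tbx6, dnd1, sox1b (neural plate) and hsp90ab1; without wildtype replicate 3 neither tbx6 nor sox1b was called. A call under tBOOH without one in water does not show a difference between them, which was tested directly.

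**Figure D5:**
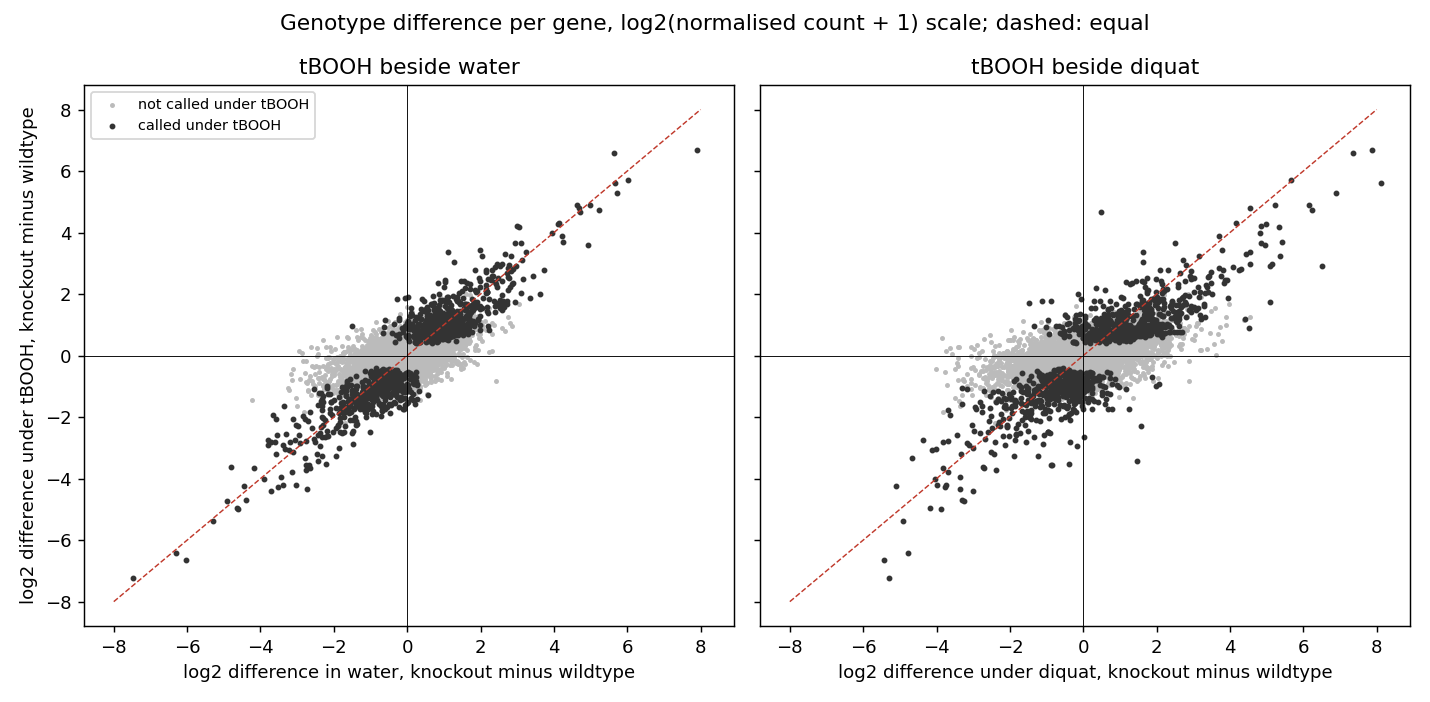
Log2 difference between knockout and wildtype under tBOOH (vertical) against that in water (left panel) and under diquat (right panel) for the 7783 genes tested; dark points passed the threshold under tBOOH and the dashed line marks equal differences. Many grey points spread along the horizontal axis, more so for diquat, where 3501 genes were called beside 1102 under tBOOH.

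The genotype difference under tBOOH and that in water differed at 1 gene in limma (0.0128%), with 1083 genes (13.9%) at an unadjusted p under 0.05. Other settings that kept every library gave counts from 1 (TMM rescaling or no low-value filter) to 827 (library quality weights), and without knockout water replicate 2 the count was 412. The gene was si:ch73-345h12.2, an uncharacterised locus named here after its values were seen. Leaving out 1 library gave 0 calls in 9 of 12 cases, each knockout tBOOH library among them, so its call was lost there. It had 93.6, 98.3 and 75.4 normalised counts in the knockout, against 80.6, 31.3 and 34.6 in the wildtype under tBOOH, and 41.5, 93.9 and 50.5 in the knockout, against 204, 209 and 112 in the wildtype in water. Its wildtype values in water lay above its wildtype values under tBOOH, and the genotype difference was 0.98 under tBOOH and -1.52 in water (interaction 2.49 ± 0.44, adjusted p = 0.0356).

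The genotype difference under tBOOH and that under diquat differed at 1111 of 7783 genes (14.3%), 469 above (6.03%) and 642 below (8.25%). With TMM rescaling 546 were above and 511 below, so which direction held more calls depends on the scaling. At 569 of them the difference under tBOOH had the same sign and was smaller, at 30 it had the same sign and was larger, and at 512 the signs were opposite. The 512 include differences near 0 that were not called, such as that at wdr59 under tBOOH. Of all genes called higher under tBOOH, 11 were called lower under diquat, and of those called lower, 17 were called higher there. The count of 1111 was 592 without knockout tBOOH replicate 1 and 598 without wildtype tBOOH replicate 2. The NADPH oxidase gene nox1, which makes superoxide, had 122, 164 and 277 normalised counts in the knockout, against 48, 141 and 117 in the wildtype under tBOOH, groups that overlap, and a log2 difference of 0.93, against 3.72 under diquat. The tripartite-motif gene btr31 had a difference of 1.75 under tBOOH and 5.08 under diquat. The Rac and Cdc42 activator gene dock8 had 32, 45 and 62.9 in the knockout and 67.6, 75.7 and 77.3 in the wildtype under tBOOH, with a difference of -0.69, against 1.87 under diquat. The kinase gene map4k3a and SEL1L3 likewise had a lower difference under tBOOH, by 3.30 and 2.76 on the log2 scale. In the other direction the extracellular matrix gene emilin3a had a difference of 0.45 under tBOOH and -2.50 under diquat, and armc1l -0.42 and -3.49. For the nuclear receptor gene nr6a1a (ENSDARG00000101508) and wdr59, a regulator of TOR complex signalling, the difference under tBOOH was -0.43 and -0.06, and under diquat -4.01 and -3.41. At nr6a1a the wildtype tBOOH libraries themselves were spread, with 38.3, 3.48 and 5.63, and at wdr59 with 93.6, 36.6 and 37. Wildtype replicate 1 was the high value in both.

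Under tBOOH at the later series the genotypes differed at 94 of 9725 genes at 48 hpf (0.967%) and 2370 of 11436 at 96 hpf (20.7%). At 48 hpf 34 genes rose (0.35%) and 60 fell (0.617%), and at 96 hpf 1146 rose (10%) and 1224 fell (10.7%). These fits used the same test on the libraries of each series. Of the 606 genes higher at 2 hpf, 509 were tested at 48 hpf and 20 were higher there, and 523 were tested at 96 hpf, where 167 were higher and 22 lower. Of the 496 lower, 15 of 367 tested were lower at 48 hpf, and 111 of 387 were lower at 96 hpf and 16 higher. With or without a call, the sign at 48 hpf was the same for 399 of the 509 and 258 of the 367. At 96 hpf it was the same for 396 of the 523 and 273 of the 387. A gene without a call at a later series is not shown to be alike between the genotypes there. Among the 12 largest rises CFAP70, dnajb9b, dhx40, gpr19 and slc35f4 were called higher at both later series, CFAP70 with log2 differences of 6.67 at 2 hpf, 7.14 at 48 hpf and 6.31 at 96 hpf. The rise at mybpc1 was 6.59 at 2 hpf and 2.77 at 48 hpf, and at 96 hpf the difference was -0.45 without a call. Among the 12 largest falls ttc14 was called lower at both later series, with log2 differences of -1.50, -2.28 and -1.18 at 2, 48 and 96 hpf. The fall at ptx4 was not called at 48 hpf and was -3 at 96 hpf.

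Genes near nfe2 on its chromosome were called at a rate near that of all genes. Within 50 places on each side of it in the RefSeq gene order 7 of the 90 tested rose in the knockout under tBOOH and 8 fell. That is 16.7%, beside 14.2% of all genes and 12.9% of the tested genes matched to RefSeq. Within 10 places on each side 15% of 20 tested were called, and within 25 places 18% of 50. The largest falls among them were at ftr92 (-2.59) and si:dkey-126g1.9 (-2.50), and the largest rise was at btr31 (1.75). Of the genes named in this report, rps12, zgc:153284, armc1l, dazap2 and btr31 lie within these places. Whether their differences come from the mutation or from sequence linked to it was not tested.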

How the data were processed

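The deposited table holds a signal per gene and library, read counts divided by a size factor by the authors. Per the submitters' processing notes, the tools were FastQC 0.11.4, TopHat2 2.0.14, Bowtie2 2.2.5, SAMtools 0.1.19, HTSeq, DESeq2 1.10.1 and R 3.2.3, with genome build GRCz10. The values of each of the 18 libraries of the 2 hpf series are whole multiples of the value of a read: 100% lay within 0.01 of a whole read. The recovered reads served the count tests tried as alternatives. With 739807 to 1044504 reads per library, genes with few reads are imprecise.

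The main test was limma 3.58.1 (R 4.3.3) on log2(value + 1) with a mean-variance trend, fitted to the 6 groups of the 2 hpf series, on 7783 of 31953 genes, those that reached 10 in 3 or more libraries. P-values were adjusted by Benjamini-Hochberg over all genes tested, with a threshold of 0.05. Alternatives were edgeR 4.0.16, DESeq2 1.42.0, TMM rescaling, a pseudocount of 5, no filter, library weights, a replicate block, the 6 tBOOH libraries alone, each library left out, and, added after seeing the data, only genes that overlap no other gene.

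Named genes were nfe2 and the CNC list, the 12 largest calls each way (higher group averaging 50 or above, groups not overlapping, no clone names), the 4 members with the smallest p among the calls of each list, and the 5 largest interaction calls each way, of which 1 is not reported here; further list members were named after their values were seen. The comparison and the lists were chosen with earlier results of these data known. Of 1125 list entries 1069 symbols matched the table. Gene order and overlaps came from RefSeq (GRCz12tu), matched by ID or unique symbol for 6325 tested genes; it is another build than the authors', and no coordinates were taken from it. Promoter motifs were not analysed here.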

Additional observations from a re-analysis of the deposited data

Results flagged for a closer look

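These results differ between treatments by a test of the difference itself (limma interaction, adjusted p under 0.05). Each value is the genotype difference, knockout minus wildtype, under tBOOH minus that in the other treatment, in log2 units.

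Against water the gene was si:ch73-345h12.2 (2.49). Knockout values under tBOOH (75.4 to 98.3 normalised counts) overlapped the wildtype ones (31.3 to 80.6).

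Against diquat, values above 0 were those of nr6a1a (3.58), wdr59 (3.35), armc1l (3.07), emilin3a (2.95), hsp90aa1.1 (1.48), cxcl12b (1.33), sfrp1a (1.27), tbx6 (1.18) and psmc1a (1.03). The first 4 were chosen for this difference.

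Among genes chosen for this difference, values below 0 were those of btr31 (-3.34), map4k3a (-3.30), nox1 (-2.79), SEL1L3 (-2.76) and dock8 (-2.57). Among the largest rises and falls they were those of dnajb9b (-2.51), tbc1d30 (-2.19), THAP5 (-1.96), dgkb (-1.93), ttc14 (-1.92), slc35f4 (-1.72), ano9a (-1.65), PRKD2 (-1.60), atrnl1b (-1.42) and cacna1ha (-1.16). At dgkb the knockout had no read under either treatment, so the value follows the wildtype averages, 153 under tBOOH and 38.8 under diquat. Among list members they were those of mt-nd6 (-1.33), UTP20 (-1.22), psmd1 (-1.09), szl (-1.07), ca9 (-1.06), dazap2 (-0.94) and prdx5 (-0.88).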

How the results depend on the processing

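The number of genes called under tBOOH, 1102, stayed within 1.5 times in the alternatives that keep all 6 libraries and all genes, from 944 with DESeq2 to 1240. Leaving out 1 tBOOH library gave 671 to 1067, the lowest without knockout replicate 3. The genes that overlap no other gene gave 426, of fewer genes tested. The count that differed from water, 1, was 16 with a pseudocount of 5, 827 with library weights, 2 with edgeR and 76 with DESeq2. It was 0 to 412 with 1 library left out, 412 without knockout water replicate 2 and 218 without wildtype tBOOH replicate 1, and the cause was not tested. The count that differed from diquat, 1111, was 727 without the low-value filter, where more genes are tested, and 592 to 1376 with 1 library left out. List members named beyond the naming rule are counted apart, and several lost their calls. The call was lost in 10 of 14 alternatives at msrb1a, 9 at glrx and at bmp4, and 6 at cdh1. Of 82 calls under tBOOH at genes named by the rule, 64 passed in every alternative and none changed sign. The other 18 lost the call in at least 1: gata2a, arntl1a, ahsa1b, psmb1, shha, dock8, psme2, psmd1, ntd5, apoa1b, ca9, klf17, psmc1a, cxcl12b, tdgf1, tbx6, sox1b and gpx4a.

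Replicate numbers are shared across groups. After each gene's group mean was taken out, same-numbered knockout and wildtype tBOOH libraries correlated by 0.244, 0.003 and 0.090. Between all groups the mean correlation was 0.038 for the same number and -0.019 for other numbers. Of the 18 libraries, 11 correlated best with their own number. Whether the numbers pair pools is not settled by these values, and the main fit did not use them. With a replicate block the counts were 1240 under tBOOH, 71 against water and 1310 against diquat.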
